A study of Mus musculus with 4 samples.

Results

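Connexins are the membrane proteins of gap junctions, and 9 of their genes were followed here among the 22556 genes of the deposited table: Gja1, Gja3, Gja4, Gja5, Gjb1, Gjb2, Gjb5, Gjb6 and Gjc1. These genes were chosen by their symbols, as a family around Gja3, and Gja3 itself was selected on its lower FPKM values in Shh-Stk11 libraries, so that its difference between the genotypes is described here and not tested. All 9 had a row in the table. Expression is given in FPKM (reads scaled to transcript length and library depth), which allows levels to be compared between genes. Whole lungs of mouse embryos at embryonic day (E) 16.5 were sequenced, with 2 libraries from Control lungs (Shh-Cre; Stk11F/+) and 2 from Shh-Stk11 lungs (Shh-Cre; Stk11F/F). Both genotypes carried the Cre driver, active in the endodermal progenitors of the lung epithelium, and at least 1 floxed allele of the kinase gene Stk11. The strain was labelled C57BL/6, whereas the methods of the study gave mixed genetic backgrounds and stated at least 2 independent biological replicates.

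Connexin subunits assemble into a hemichannel, and hemichannels of neighbouring cells dock to form a channel through which ions and small metabolites pass. Alpha connexins (Gja) are typical of heart, vessels and lens, beta connexins (Gjb) of epithelia, liver and inner ear, and the gamma connexin Gjc1 of early heart and smooth muscle. In the lung, gap junctions couple endothelial cells along arteries, smooth muscle cells, and alveolar epithelial cells. Since the libraries came from whole lungs, fewer cells of a type and less RNA per cell cannot be told apart.

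Gja3, Gjb2 and Gjb6 lie next to each other on chromosome 14 of the mouse genome, all on the minus strand, with Zmym2 and Cryl1 as the flanking protein-coding genes of the table. The sequences before their starts are shown because Gja3 was selected for its difference between the genotypes and its 2 linked relatives were not. Each line gives 180 bases, from 250 to 71 bases before the RefSeq start (GRCm38.p6), 5′ to 3′ on the minus strand. The nearest 70 bases were left out, since GENCODE places the start of Gja3 that far upstream. Capitals mark matches on either strand to any of the following motifs. The TATA box was searched as TATAAA, the core of the site bound by RFX factors as GTTGCC, the GC box as GGGCGG and the core of the cAMP response element as TGACG.
Gja3, chr14:57058101-57058280: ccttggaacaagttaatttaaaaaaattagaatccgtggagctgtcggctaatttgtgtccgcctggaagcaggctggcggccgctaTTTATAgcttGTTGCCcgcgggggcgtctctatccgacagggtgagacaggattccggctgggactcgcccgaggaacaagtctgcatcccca
Gjb2, chr14:57104773-57104952: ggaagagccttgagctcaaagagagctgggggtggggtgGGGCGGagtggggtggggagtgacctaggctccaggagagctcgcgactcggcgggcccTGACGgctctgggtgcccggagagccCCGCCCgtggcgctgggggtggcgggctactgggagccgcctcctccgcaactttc
Gjb6, chr14:57133682-57133861: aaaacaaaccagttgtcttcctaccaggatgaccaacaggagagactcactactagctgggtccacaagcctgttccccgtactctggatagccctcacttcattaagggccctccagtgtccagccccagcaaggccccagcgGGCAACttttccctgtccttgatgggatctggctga

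The Gja3 window held TATAAA on the opposite strand, 163 bases before the start, and GTTGCC 153 bases before it. Across 32851 RefSeq windows of this length, 8.37% held the first and 7.12% the second. GTTGCC was also met in the Gjb6 window, on the opposite strand, 106 bases before the start. The Gjb2 window, the richest in G and C at 71.7% against 54.4% for Gja3 and 55.0% for Gjb6, held GGGCGG at 211 bases and, on the opposite strand, at 126 bases, a motif of 21.1% of windows, and TGACG at 152 bases, a motif of 10.7%. No match in these 3 windows was found for the full cAMP response element TGACGTCA, present in 0.584% of all windows, for the forkhead site TGTTTAC, present in 2.37%, or for the CAAT box, searched as CCAAT and present in 25% of them. TGACG is contained in TGACGTCA. Such matches describe the letters only.

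Stk11, the gene deleted, was lower in both libraries labelled as Shh-Stk11, at 44.0 and 45.5 FPKM in Control 1 and Control 2 against 29.5 and 26.0 FPKM in Shh-Stk11 1 and Shh-Stk11 2. Its log2 fold change was -0.69, with a limma adjusted p of 0.0499 that ranged from 0.0449 to 0.183 over the alternatives described in the closing section. The depth recovered from the steps of low values was about 30700000 to 37900000 reads per library. Shh-Stk11 2 came from a male, with Ddx3y at 23.5 FPKM, while the other libraries held at most 0.0285 FPKM of this Y-linked gene. Over all 13770 genes tested with limma, 313 passed an adjusted p of 0.05, or 2.27%.

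Gja1 was the most abundant connexin, and the genes spanned a wide range of levels. Connexin genes together summed to 239, 173, 169 and 190 FPKM in Control 1, Control 2, Shh-Stk11 1 and Shh-Stk11 2, and Gja1 contributed between 52.8% and 63.0% of that sum. The mean over the 4 libraries was 113 FPKM for Gja1, 36.3 FPKM for Gjc1, 19.0 FPKM for Gja5 and 17.7 FPKM for Gja4. A second tier of low genes followed, with means of 1.70 FPKM for Gjb6, 1.09 FPKM for Gja3 and 0.772 FPKM for Gjb2. Gjb5 and Gjb1 were near the detection limit, with means of 0.176 and 0.112 FPKM. The ranges over libraries overlapped between Gja5 and Gja4, between Gjb6 and Gja3, between Gja3 and Gjb2, and between Gjb5 and Gjb1. All other neighbours in this order were separated.

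**Figure D1:**
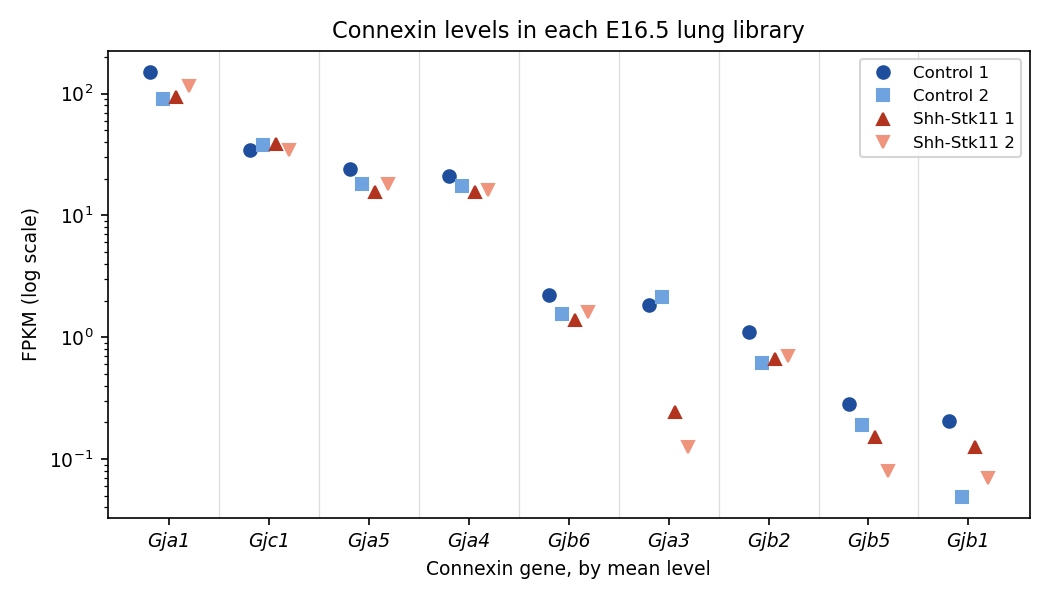
FPKM (log axis) of the 9 connexin genes in each library, ordered by mean level; each point is 1 library. The Gja3 points lie at 1.85 and 2.13 FPKM for Control and at 0.242 and 0.125 FPKM for Shh-Stk11, while Control 1 holds the highest point for 7 of the 9 genes.

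Gja3 encodes connexin 46, which is best known from the fibre cells of the eye lens. It was at 1.85 FPKM in Control 1 and 2.13 FPKM in Control 2, against 0.242 FPKM in Shh-Stk11 1 and 0.125 FPKM in Shh-Stk11 2. Both Shh-Stk11 libraries lay far below both Controls, and a part of sex in this difference was not tested. The Control mean was 1.99 ± 0.195 FPKM and the Shh-Stk11 mean 0.183 ± 0.0829 FPKM (SD, n = 2 each), which was 10.9-fold lower, and the log2 fold change was -2.91. From the transcript length, these values corresponded to an estimated 180, 172, 19.1 and 10.6 reads in that order of libraries. The remaining signal was therefore above the floor of 3 reads, which is worth 0.0308 to 0.0380 FPKM for this gene. The Shh-Stk11 libraries differed by 0.61 from each other on the log2(FPKM + 0.1) scale, and 6.13% of tested genes differed by more. As a share of all connexin FPKM, Gja3 made up 0.775% and 1.23% in Control lungs, against 0.143% and 0.0657%.

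Gjb2 and Gjb6, the neighbours of Gja3 on the chromosome, encode connexins 26 and 30, which are co-expressed in the supporting cells of the cochlea. Gjb2 was at 1.11 FPKM in Control 1, 0.619 FPKM in Control 2, 0.663 FPKM in Shh-Stk11 1 and 0.697 FPKM in Shh-Stk11 2. Gjb6 was at 2.24, 1.55, 1.40 and 1.60 FPKM in the same order. In both genes Control 1 stood highest and the other libraries lay close together, so that the genotypes overlapped. The log2 fold change was -0.26 for Gjb2 (95% interval -1.09 to 0.57, limma adjusted p 0.774) and -0.30 for Gjb6 (95% interval -0.89 to 0.29, limma adjusted p 0.623). Without Control 1, the values were 0.12 for Gjb2 and -0.05 for Gjb6, and without Control 2 they were -0.63 and -0.55.

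The genes flanking the linked connexins had values of their own. Zmym2, a zinc finger gene beside Gja3, measured 7.62 and 9.17 FPKM in Control lungs against 15.7 and 12.9 FPKM with Stk11 deleted. Its log2 fold change was 0.76, short of the threshold (limma adjusted p 0.0757), with both Shh-Stk11 libraries above both Controls. Cryl1, which encodes lambda crystallin and lies beside Gjb6, was at 13.2, 17.2, 13.2 and 14.3 FPKM in the 4 libraries in the same order (log2 fold change -0.14, limma adjusted p 0.736).

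**Figure D2:**
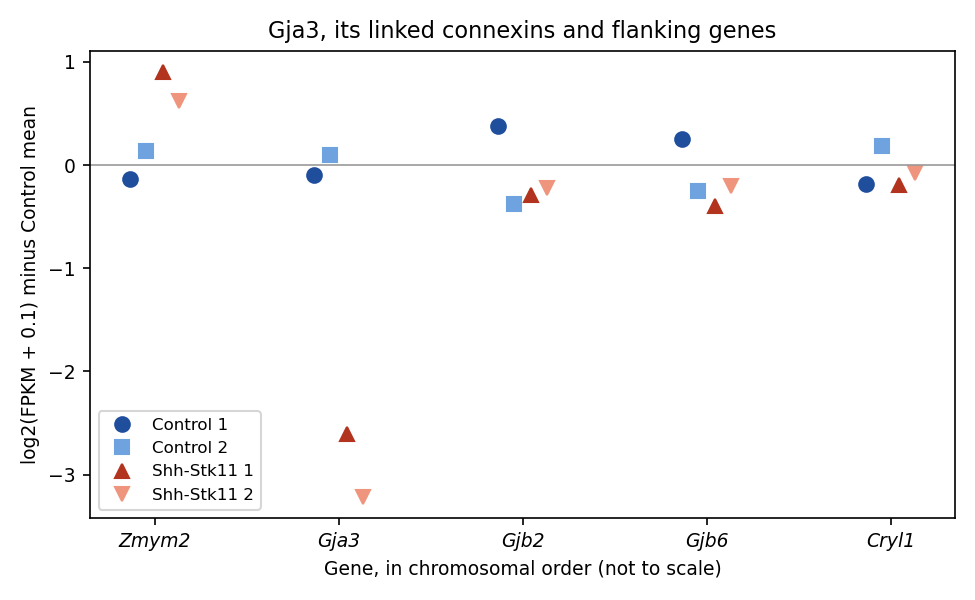
log2(FPKM + 0.1) of each library minus the Control mean (vertical axis) for Gja3, its linked connexins Gjb2 and Gjb6 and the flanking genes, in chromosomal order and not to scale. Only Gja3 among the 5 genes plotted has both Shh-Stk11 points far below 0, while both lie above 0 for Zmym2.

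Gja1, Gja4 and Gja5 are well known from the heart and vessels. Gja1 encodes connexin 43, found in many mesenchymal, muscle and epithelial cells, and was at 151 FPKM in Control 1, 91.1 FPKM in Control 2, 94.0 FPKM in Shh-Stk11 1 and 116 FPKM in Shh-Stk11 2. The genotypes overlapped, and the Controls differed more from each other than the genotype means did (121 ± 42.1 and 105 ± 15.3 FPKM, SD, n = 2 each). The log2 fold change was -0.17 (95% interval -0.77 to 0.43, limma adjusted p 0.798). It turned to 0.19 without Control 1 and was -0.53 without Control 2.

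Gja4 and Gja5 encode connexins 37 and 40, which couple the endothelial cells of arteries. Gja4 measured 21.3 and 17.6 FPKM in Control lungs against 15.6 and 16.2 FPKM in the Shh-Stk11 libraries. Of the 6 tested connexins other than Gja3, Gja4 alone had genotypes that did not overlap, and it was lower. Of all genes tested, 46.8% did not overlap, and 27.6% were lower without overlap. The log2 fold change of Gja4 was -0.28 (95% interval -0.62 to 0.05, limma adjusted p 0.412). It was -0.15 without Control 1, -0.42 without Control 2, and -0.09 once the trend on transcript length and GC content was removed.

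Gja5 measured 24.0 and 18.1 FPKM in Control lungs against 15.5 and 18.3 FPKM in the Shh-Stk11 libraries, where the second value lay within the Control range. The log2 fold change was -0.30 (95% interval -0.72 to 0.11, limma adjusted p 0.475). It was -0.10 without Control 1 and -0.50 without Control 2.

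Gjc1 encodes connexin 45. It measured 34.3 and 37.6 FPKM in Control lungs against 38.8 and 34.5 FPKM in the Shh-Stk11 libraries. The values of the genotypes overlapped. Its log2 fold change of 0.02 (95% interval -0.28 to 0.33, limma adjusted p 0.949) was the only positive one among the 7 tested, and it turned to -0.04 without Control 1 and to -0.061 without Shh-Stk11 1.

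**Figure D3:**
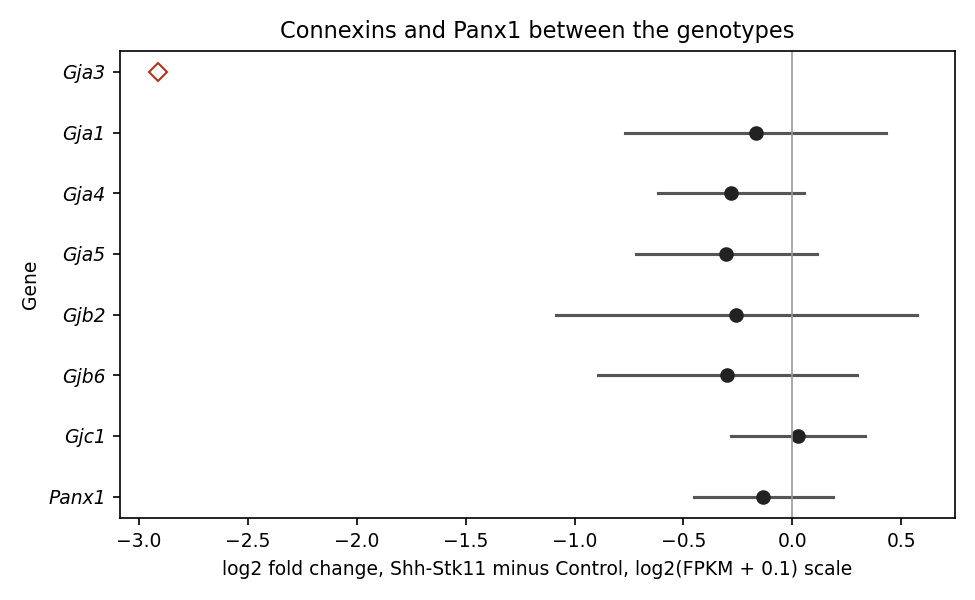
log2 fold change of Shh-Stk11 against Control on the log2(FPKM + 0.1) scale (horizontal axis) for 7 of the 9 connexins and Panx1. Points are estimates from 2 libraries per genotype and bars are 95% intervals from limma; Gja3, drawn as an open diamond without a bar because its difference chose the genes, lies at -2.91, and every bar crosses 0.

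Gjb5 and Gjb1 were below the mean of 0.5 FPKM required for testing, so 7 of the 9 genes entered the fit, Gja3 among them. Gjb5 encodes connexin 31.1 of stratified epithelia. It measured 0.280 and 0.190 FPKM in Control lungs against 0.151 and 0.0803 FPKM in the Shh-Stk11 libraries, from 16, 9, 7 and 4 reads. Both Shh-Stk11 values were below both Controls, with means 2.03-fold apart, and with genes of at least 0.1 FPKM tested the log2 fold change was -0.64 (95% interval -1.5 to 0.22, limma adjusted p 0.474). Gjb1 encodes connexin 32 of hepatocytes and myelinating Schwann cells. It was at 0.204, 0.0491, 0.126 and 0.0700 FPKM in Control 1, Control 2, Shh-Stk11 1 and Shh-Stk11 2, from 10, 2, 5 and 3 reads. These are the smallest whole numbers with the ratios of the values once scaled for depth. The genotypes overlapped, and no difference was detectable at this depth (log2 fold change -0.12, 95% interval -1.22 to 0.98, limma adjusted p 0.932 with genes of at least 0.1 FPKM tested).

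Control 1 stood out among the connexins. It held the highest value of 7 of the 9 genes, and of 5 of the 7 tested, whereas it was highest for 24.7% of all genes tested. Gja1, Gjb2 and Gjb6 were higher in Control 1 than in Control 2 by 0.72, 0.75 and 0.50 on the log2 scale. The median absolute difference between the Controls over all genes tested was 0.18, and only 3.46%, 3.20% and 9.88% of these genes differed by more than Gja1, Gjb2 and Gjb6. With the trend on length and GC content removed, the 3 differences were 0.78, 0.86 and 0.62, and Control 1 was still the highest library of the same 5 tested genes. Apart from Gja3, the 6 tested connexins of the 9 had a median log2 fold change of -0.27, with 5 lower, 1 higher and 0 past the threshold, against a median of -0.05 over all genes tested. The share of all genes tested that passed was 2.27%, as given above, and 8033 of those 13770 genes were lower. The median of the 6 connexins changed with the Control library left out. Without Control 1, 4 of the 6 were lower and 2 higher, with a median of -0.045 against -0.055 over all genes tested, and without Control 2 the median was -0.52 against -0.037.

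The other connexins given here were all under the filter on low values. Gja6 was at 14, 7, 8 and 17 reads and Gjd2 at 6, 7, 7 and 10 reads in Control 1, Control 2, Shh-Stk11 1 and Shh-Stk11 2. The genotypes overlapped for Gja6, while the FPKM values of Gjd2 were 0.0589 and 0.0828 in Control lungs against 0.0848 and 0.112, too few reads to show a difference. Gjd3 had 1 read in Control 1 and 7 in Control 2, and was listed at 0 in both Shh-Stk11 libraries. Gjc3 was at 0.0238 to 0.0587 FPKM. Gja10 at 0.0247 FPKM and Gje1 at 0.0255 FPKM appeared in Shh-Stk11 1 alone, and Gjd4 was listed at 0 throughout, which at its length allows up to 0.0396 FPKM. Pannexins span the membrane as connexins do, without being related to them in sequence. Panx1 measured 6.61 and 6.98 FPKM in Control lungs against 6.29 and 6.08 FPKM in the Shh-Stk11 libraries (log2 fold change -0.13, 95% interval -0.45 to 0.19, limma adjusted p 0.691). Panx2 lay between 0.0844 and 0.131 FPKM, and Panx3 reached at most 0.0140 FPKM.

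Connexins are held at the membrane by scaffolds and need cell adhesion to dock. The list of 18 junction partners and regulators (among them the scaffold genes Tjp1 and Tjp3, the cadherins Cdh1, Cdh2 and Cdh5, and Cav1) was tested in full. Its median log2 fold change was 0.05, with 11 genes higher and 7 lower, and 0 passed the threshold. Of 16 lens fibre genes, the setting in which Gja3 is best known, 4 were tested, with 2 higher and 2 lower, 0 past the threshold and a median of 0.03, while 5 were listed at 0 in every library. The 16 lens genes summed to 6.47 and 7.65 FPKM in Control 1 and Control 2 and to 7.11 and 8.65 FPKM in Shh-Stk11 1 and Shh-Stk11 2. The lens crystallin gene Cryaa, singled out after its values were seen, was under the filter, at 0.352 and 0.392 FPKM in Control lungs against 0.0668 and 0.155 FPKM.

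The profile of Gja3 over the 4 libraries was compared with that of all other genes tested, by the Euclidean distance between centred log2(FPKM + 0.1) values. The 5 closest were Gkn2 (0.56), Fam92b (0.66), Cym (0.66), Lrrn1 (0.68) and Ccdc42b (0.82). Gkn2 measured 0.875 and 1.5 FPKM in Control lungs against 0.0569 and 0.0528 FPKM in the Shh-Stk11 libraries. Cym measured 11.5 and 15.9 FPKM against 1.39 and 0.820 FPKM. In each of the 5 genes both Shh-Stk11 libraries lay below both Controls. Lrrn1 measured 6.88 and 6.73 FPKM against 1.27 and 1.20 FPKM. Fam92b measured 3.26 and 3.45 FPKM against 0.726 and 0.520 FPKM. Ccdc42b measured 1.91 and 2.04 FPKM against 0.408 and 0.337 FPKM. All of these were chosen for their likeness to Gja3, and 4 libraries describe a profile only coarsely.

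Cell type markers are given as measured beside the connexins, and their part in the connexin values was not tested. Summed levels are over every listed gene with a row in the table, the untested ones included. Of all 13770 genes tested, 5737 were higher and 8033 lower, and 2.27% passed the threshold. Beside Gja3, 8 ciliated cell genes were tested, of which 8 were lower and 7 passed the threshold. The median log2 fold change of those tested was -1.67, and the summed level of the list was 101 to 108 FPKM in Control against 31.3 to 34.4 FPKM in Shh-Stk11 lungs. The largest changes were those of Ccdc113 (-2.00), Tekt2 (-1.99) and Rsph1 (-1.90). Of the airway secretory genes, 5 of 8 tested were lower and 3 passed the threshold (Upk3a, -1.49; Scgb3a2, -1.41; Cckar, -0.76), with a median of -0.45 and sums of 1096 to 1098 and 875 to 938 FPKM. The members differed in direction, and the following were singled out after their values were seen. Scgb1a1, the defining gene of club cells, measured 221 and 102 FPKM in Control lungs against 312 and 471 FPKM, higher without overlap but short of the threshold (log2 fold change 1.35, limma adjusted p 0.144). Muc5b, a mucin gene under the filter, measured 0.0178 and 0.0364 FPKM against 0.737 and 0.285 FPKM. Of the alveolar type 1 genes, 7 of 8 were lower and only Pdpn (-1.18) passed, with a median of -0.57 and sums of 1287 to 1544 and 805 to 1197 FPKM. The alveolar type 2 genes were split, 4 higher and 4 lower, 0 past the threshold, with a median of -0.07 and sums of 16718 to 18864 and 9184 to 13567 FPKM. Most of these sums was the surfactant gene Sftpc alone, at 17425 and 15784 FPKM in Control lungs against 8005 and 12048 FPKM (-0.76, limma adjusted p 0.447), whereas Sftpd (2.04, limma adjusted p 0.0853) and Sftpb (0.41, limma adjusted p 0.365) were higher without overlap and short of the threshold. The 12 general epithelial genes had a median of 0.21, with 11 higher, 1 lower and 0 past the threshold, and sums of 1150 to 1216 and 1265 to 1463 FPKM. For stratified epithelium, where Gjb2, Gjb5 and Gjb6 are usual, 4 of 12 basal and squamous genes were tested, 2 higher and 2 lower. Krt15 (-0.93) alone passed, the median was -0.29, and the sums were 42.4 to 43.2 and 23.2 to 26.8 FPKM. Most of these sums was Krt15 itself, at 39.4 and 39.3 FPKM in Control lungs against 19.2 and 22.0 FPKM. The defining basal genes Trp63 and Krt5 stayed at or below 0.170 FPKM, and Dsg3 was listed at 0.

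Beside Gja4 and Gja5, all 12 endothelial genes had negative log2 fold changes, with a median of -0.38 and 0 past the threshold. Their sums were 1025 to 1117 FPKM in Control against 784 to 839 FPKM in Shh-Stk11 lungs. The 8 arterial genes were split, 4 higher and 4 lower, with a median of -0.07 and sums of 164 to 205 and 196 to 202 FPKM. Mecom (0.82, limma adjusted p 0.0335) passed the threshold and was higher. Beside Gjc1, the 10 smooth muscle and pericyte genes had a median of -0.02, with 3 higher, 7 lower and 0 past the threshold, and sums of 485 to 537 and 467 to 539 FPKM. The 9 tested of 12 heart muscle genes were all lower, 0 past the threshold, with a median of -0.86. The sums over the 12 were 139, 300, 176 and 70.7 FPKM in Control 1, Control 2, Shh-Stk11 1 and Shh-Stk11 2, highest in Control 2. Among the connexins, Gja3 was highest in Control 2, Gja1, Gja4 and Gja5 in Control 1, and Gjc1 in Shh-Stk11 1. A part of heart tissue in these values was not tested.

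**Figure D4:**
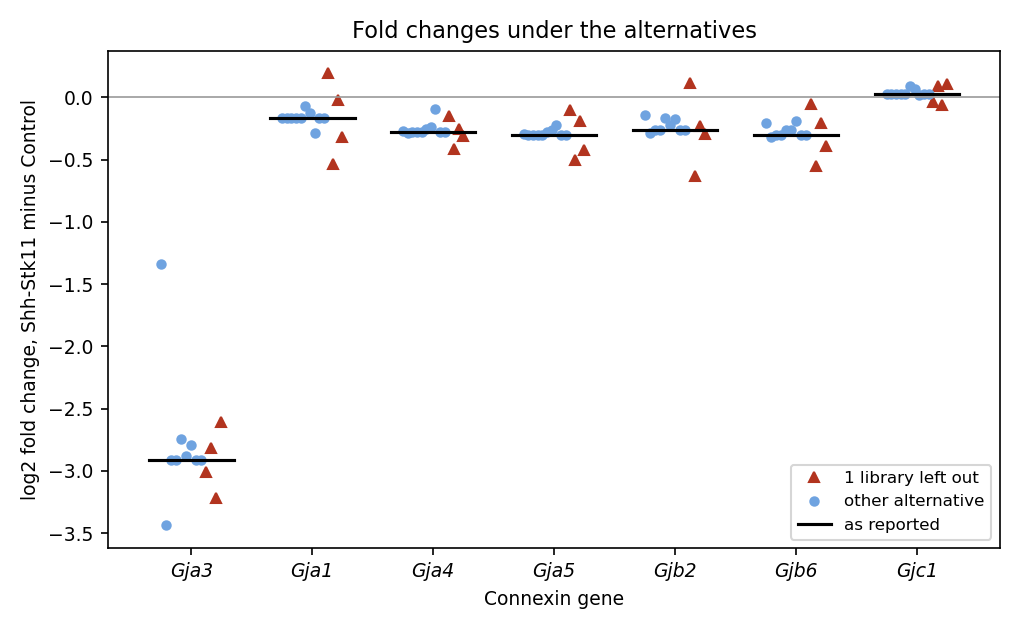
log2 fold change of Shh-Stk11 against Control (vertical axis) of the 7 tested connexins as reported (black line), with 1 library left out (triangles) and under the other alternatives in which the gene was tested (circles). Gja3 stays between -3.44 and -1.34, the ends being pseudocounts of 0.01 and 1, while the triangles of Gja1, Gjb2 and Gjc1 lie on both sides of 0.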

How the data were processed

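Total RNA of E16.5 lungs was sequenced by the study as single-end 50-base reads. The authors deposited FPKM values, 1 row per gene and 1 column per library; the submitters' processing notes name TopHat2 2.0.13, Cufflinks 2.2.1 and the builds GRCm38 and mm9 without their roles, and the annotation is not given in the sources used here. Groups came from the sample titles. No source says whether a library pools several embryos. The p-values rest on the spread between these libraries only, and limma draws part of each gene's variance from other genes. That part carried 4.48 degrees of freedom, against 2 from the gene itself.

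FPKM values are not counts. In R 4.3.3 with limma 3.58.1, log2(FPKM + 0.1) was fitted with genotype as the only term (lmFit, eBayes with a trend), for the 13770 genes that averaged 0.5 FPKM or more. Tests were two-sided, with Benjamini-Hochberg adjustment over all of them and a threshold of 0.05. A fold change on this scale understates that of low genes. With 2 libraries per genotype, no exact permutation test can reach 0.05.

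Of 1806 low genes (under 0.3 FPKM in every library), 77.3% held whole multiples of a smallest step in all libraries (tolerance 1%), which gave read numbers and depth. Lengths are those of the longest GENCODE M21 transcript, less 196 bases, and need not be those the authors used. Floors and read numbers cover counting error only.

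The genes, lists and tests were chosen with earlier results of these data known. Named were connexins and pannexins (some genes are not reported here), Stk11, flanking genes, the 5 profiles closest to Gja3 and, per list, up to 3 genes past the threshold; outside this rule, Cryaa, Scgb1a1, Muc5b, Sftpc, Sftpd, Sftpb, Trp63, Krt5, Dsg3 and Ddx3y were added after their values were seen, and Tjp1, Tjp3, Cdh1, Cdh2, Cdh5 and Cav1 are named without values, as examples of their list. Symbols were matched to GENCODE M21 for 22146 genes, and 8 of the 9 connexins had a RefSeq promoter window. For ciliated cells 9 of 14 listed symbols, older names included, had a row, and for airway secretory cells 9 of 10. Alternatives were other pseudocounts, filters and scalings, removal of the length and GC trend, no eBayes trend, a replicate block and leaving out each library; a crossed replicate block was added after seeing the data.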

Additional observations from a re-analysis of the deposited data

How the results depend on the processing

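Over 14 alternatives, none of the 84 values of the connexins other than Gja3 passed the threshold, and 80 kept their direction. The other filters, the fit without the eBayes trend and the replicate block leave a fold change as it was. Direction could not reverse in those settings, so the 80 is no measure of stability. The 4 that reversed were Gja1 (0.19), Gjb2 (0.12) and Gjc1 (-0.04) without Control 1, and Gjc1 (-0.061) without Shh-Stk11 1. Leaving out 1 library gave -0.53 to 0.19 for Gja1, -0.63 to 0.12 for Gjb2 and -0.061 to 0.11 for Gjc1. Gja3 moved to -1.34 with a pseudocount of 1 and to -3.44 with 0.01, by construction, since its Shh-Stk11 values lie near the pseudocount; with the pseudocount at 0.1 it lay between -3.21 and -2.61. With genes of at least 5 FPKM it was not tested.

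The count of all genes past the threshold was less stable. From 313 (135 higher, 178 lower), it changed to 200 (90 lower) with genes of at least 5 FPKM, to 61 (20 higher, 41 lower) without a filter, and to 182 (79 higher, 103 lower) with the length and GC trend removed. Leaving out 1 library gave 38 to 191 genes, 15 to 64 of them higher and 23 to 127 lower: 49 without Control 1, 38 without Control 2, 169 without Shh-Stk11 1 and 191 without Shh-Stk11 2, each with 1 library standing for its genotype. The replicate block left 13 (6 higher, 7 lower), and the block with the numbers crossed, chosen after seeing the data, gave 675 (360 higher, 315 lower). The labels share replicate numbers but do not say what a number marks, and deviations of same-numbered libraries had a correlation of -0.11 across genes. The causes of these shifts were not tested. Depth limited Gjb1 and Gjb5, at no more than 16 reads, and most other low connexins.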
